A study of Mus musculus with 12 samples.

Results

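The genes described are 9 enzymes, transporters and regulators of hepatic glucose and glycogen metabolism, chosen by gene symbol (Pck1, G6pc, Fbp1, Pcx, Gckr, Pklr, Slc2a2, Gys2 and Pygl) from the 23420 gene symbols counted in mouse liver. All 9 were found in the count tables and all 9 passed the filter on low counts in every comparison. Liver mRNA had been profiled at ZT10 (10 h after lights on) with the Lexogen QuantSeq 3′ mRNA kit, which gives a read from the 3′ end of a transcript, so that the reads of a gene count its transcripts. Levels are given as CPM, a gene's counts scaled to the library's total with TMM factors, which allow for differences in RNA composition. There were 12 libraries, 3 from each of wild type females (WTF, mice 1089, 1090 and 1091), Siah2 KO females (KOF, mice 1070, 1104 and 1105), wild type males (WTM, mice 1055, 1086 and 1087) and Siah2 KO males (KOM, mice 1075, 1076 and 1081). All mice were of C57BL/6 background, about 20 weeks of age and kept in a light-dark cycle with free access to chow. The Siah2 KO mice lacked SIAH2, a ubiquitin ligase, in the whole body, and wild type and knockout animals came from related lines set up from crosses of heterozygotes, so that line and genotype cannot be told apart. The labels describe RNA pooled from 3 mice, whereas the study's text describes individual livers for this experiment and each library carries its own mouse number. The libraries were therefore taken as separate mice, and if pools had been sequenced the p-values would measure the spread between pools.

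The liver keeps blood glucose steady by storing it as glycogen after a meal and by releasing it between meals, from glycogen and by gluconeogenesis, the synthesis of glucose from lactate, glycerol and amino acids. Pcx (pyruvate carboxylase), Pck1 (cytosolic phosphoenolpyruvate carboxykinase), Fbp1 (fructose-1,6-bisphosphatase) and G6pc (the catalytic subunit of glucose-6-phosphatase) are the dedicated enzymes of gluconeogenesis, and G6pc also ends the release of glucose from glycogen. Gckr encodes a regulatory protein of hepatic glycolysis, Pklr (liver pyruvate kinase) catalyses the last step of glycolysis, and Slc2a2 (GLUT2) is the glucose transporter of hepatocytes. Gys2 (liver glycogen synthase) builds glycogen and Pygl (liver glycogen phosphorylase) breaks it down. Transcription of Pck1 and G6pc is raised by glucagon, through cyclic AMP, and by glucocorticoids, and is lowered by insulin, so that their mRNA follows feeding and the time of day.

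In RefSeq (GRCm38.p6, the assembly called mm10) Pck1 lies on chromosome 2 at 173153073 to 173159274 and G6pc on chromosome 11 at 101367716 to 101377903, both on the plus strand. Fbp1 lies on chromosome 13 at 62864753 to 62888298 and Pygl on chromosome 12 at 70190815 to 70227683, both on the minus strand. Pcx lies on chromosome 19 at 4510472 to 4621752 and Gckr on chromosome 5 at 31297266 to 31327302. Pklr (89136122 to 89146815) and Slc2a2 (28697903 to 28728361) share chromosome 3, and Gys2 lies on chromosome 6 at 142422612 to 142473130.

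The 250 bases upstream of the transcription start are shown for Pck1 (chr2:173152823-173153072, plus strand) and G6pc (chr11:101367466-101367715, plus strand), the 2 members whose mRNA varied most between mice and in which the wild type females ranged most widely. The sequences are from RefSeq, 5′ to 3′, and capitals mark a match, on either strand, to any of the 4 motifs named after them.
Pck1: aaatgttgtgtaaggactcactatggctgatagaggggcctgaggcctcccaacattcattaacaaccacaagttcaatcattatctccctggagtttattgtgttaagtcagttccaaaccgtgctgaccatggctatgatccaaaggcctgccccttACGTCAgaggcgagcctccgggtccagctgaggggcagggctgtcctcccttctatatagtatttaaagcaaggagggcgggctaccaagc
G6pc: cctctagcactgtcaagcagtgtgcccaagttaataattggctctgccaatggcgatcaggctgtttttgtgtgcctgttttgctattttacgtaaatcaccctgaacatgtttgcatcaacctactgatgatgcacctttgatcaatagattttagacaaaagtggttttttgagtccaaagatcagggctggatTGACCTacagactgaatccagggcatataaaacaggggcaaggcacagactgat

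Motifs were searched on both strands in the upstream windows of 8 members (Pck1, G6pc, Fbp1, Pcx, Gckr, Pklr, Slc2a2 and Pygl). Pcx and Pklr have 2 windows each and are counted if either matches, whereas the shares of all windows count each window by itself. The windows of a chromosome that holds no member were left out of these shares. The core of the cyclic AMP response element, TGACGT, matched in 1 of the 8, Pck1, where it starts 91 bases upstream on the minus strand, and 6.47% of 32851 windows of that length hold it. The nuclear receptor motif AGGTCA matched in 4 of the 8 (G6pc, Pklr, Slc2a2 and Pygl), beside 14.0% of all windows. The E-box CACGTG matched in 1 of the 8, Pcx, beside 6.02% of all windows, and the FOXO motif TGTTTAC in 0 of the 8, beside 3.17%. Read on the opposite strand AGGTCA is TGACCT, which differs by a letter from TGACGT, so that no stretch counts for both, and a match describes the letters only.

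Between 1293688 and 4056144 reads per library were counted on genes (median 2670267.5). The rarest member, Pklr, had 27 to 171 counts in a library, and 12.6 to 52.9 CPM. The ribosomal transcript Rn45s took 5.68% to 17.9% of the counts. Wild type female 1091 stood apart from the other wild type females: 21.8% of genes were over 2-fold away from the mean of the other mice of its group, against 3.14% to 7.33% in the other 11 libraries. The members that edgeR called in comparisons with wild type females are therefore also given without it. DESeq2 calls, counts of genes without overlap, marker sums and the other genes of the pathway are given with all mice only. The targeted gene Siah2 was counted at 13.6 ± 2.96 CPM in WTF, 10.7 ± 1.57 in KOF, 21.8 ± 5.18 in WTM and 13.9 ± 4.08 in KOM (SD, n = 3). The sources used here do not say where the deletion lies relative to the counted 3′ end, so Siah2 reads are no check of genotype. The summed level of 6 hepatocyte markers was between 22879.9 and 40575 CPM in every library, and 3 of 5 pancreatic acinar markers were at 0 throughout.

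Pck1 was the most abundant of the 9 mRNAs and the most unequal between mice, with 0.169% to 1.77% of all counts of a library. In wild type females it measured 2836 CPM in mouse 1089, 7972 in mouse 1090 and 1879 in mouse 1091. In Siah2 KO females it measured 12709, 8974 and 16788 CPM. All 3 Siah2 KO females were above all 3 wild type females, and within the wild type group the highest value was 4.24 times the lowest. Wild type males had 6975, 12545 and 12297 CPM, and Siah2 KO males 17628, 8422 and 12065. The males of both genotypes therefore overlapped each other and the Siah2 KO females, and the lowest values of all were those of wild type females 1089 and 1091.

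G6pc showed the same uneven wild type females without a shift of the group. The wild type females had 48.0, 302 and 35.4 CPM, so that mouse 1090 had the highest value of all 12 mice and mouse 1091 the lowest. The Siah2 KO females had 121, 107 and 226 CPM, between these extremes. Wild type males had 58.1, 89.5 and 138 CPM and Siah2 KO males 120.3, 64.2 and 49.0, and all 4 groups overlapped.

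**Figure D1:**
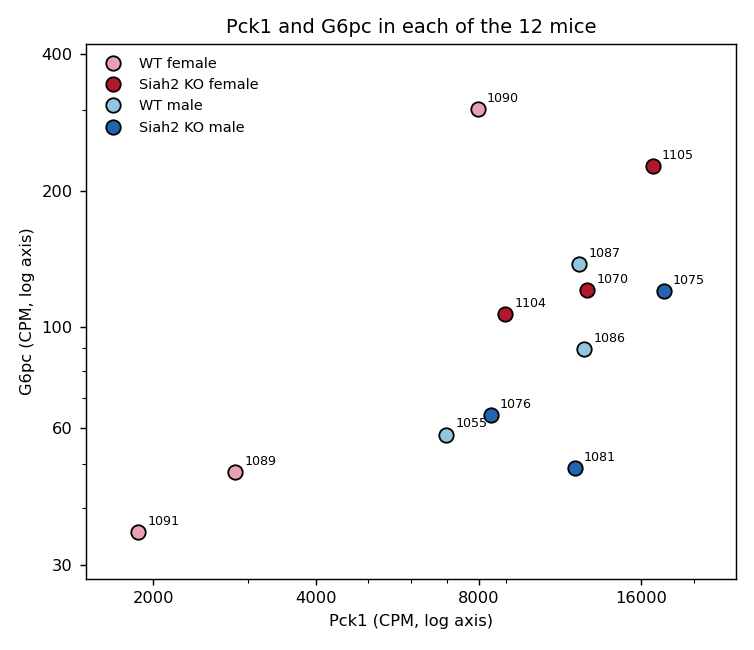
Level of G6pc (y axis, CPM, log scale) against that of Pck1 (x axis, CPM, log scale) in each of the 12 mice, coloured by group and marked with the mouse number. Wild type females 1089 and 1091 have the lowest Pck1, at 2836 and 1879 CPM, and the lowest G6pc, at 48.0 and 35.4 CPM, while wild type female 1090 has the highest G6pc, 302 CPM.

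Pcx acts before Pck1 in gluconeogenesis and Fbp1 after it, and the mean of both was highest in wild type females. Fbp1 measured 306, 369.7 and 376 CPM in wild type females and 280.1, 262 and 203 in Siah2 KO females, so that the genotypes did not overlap. In wild type males it measured 128, 135 and 173 CPM and in Siah2 KO males 127, 152 and 101. Every female was above every male. Pcx measured 87.4, 116 and 112 CPM in wild type females and 65.8, 68.1 and 47.6 in Siah2 KO females, again without overlap. Pcx in wild type males was 89.4, 55.3 and 54.2 CPM and in Siah2 KO males 94.6, 59.0 and 58.4, so that 1 male of each genotype reached the level of the wild type females.

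Among the genes that act on incoming glucose, Gckr set the wild type females apart. It measured 153, 145 and 129 CPM in wild type females, above every other mouse, and 97.4, 96.5 and 99.3 in Siah2 KO females. Wild type males had 111, 85.5 and 93.5 CPM and Siah2 KO males 90.1, 91.6 and 90.9. Pklr measured 18.8, 12.6 and 24.5 CPM in wild type females and 39.8, 41.6 and 24.1 in Siah2 KO females, and only mouse 1105 of the latter fell within the wild type range. Its widest spread was in wild type males, with 25.2, 13.6 and 52.9 CPM, and Siah2 KO males had 23.4, 16.9 and 25.9. Slc2a2 stayed between 158 and 252 CPM in all 12 mice, and the ranges of all 4 groups overlapped.

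The glycogen genes split. Gys2 was close to equal in the wild type females, at 143, 135 and 145 CPM, and higher in the Siah2 KO females, at 389.9, 275 and 346 CPM. Wild type males had 255, 228 and 270.2 CPM and Siah2 KO males 286, 216 and 214. The wild type females were below all 9 other mice, and the Siah2 KO females overlapped only the Siah2 KO male with the highest value. Pygl, which opposes Gys2, lay between 313 and 539.5 CPM over the 12 mice, with overlap between all groups. Its group means were 475 ± 56.1 in WTF, 423 ± 85.8 in KOF, 421 ± 97.7 in WTM and 394 ± 14.1 in KOM (SD, n = 3).

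**Figure D2:**
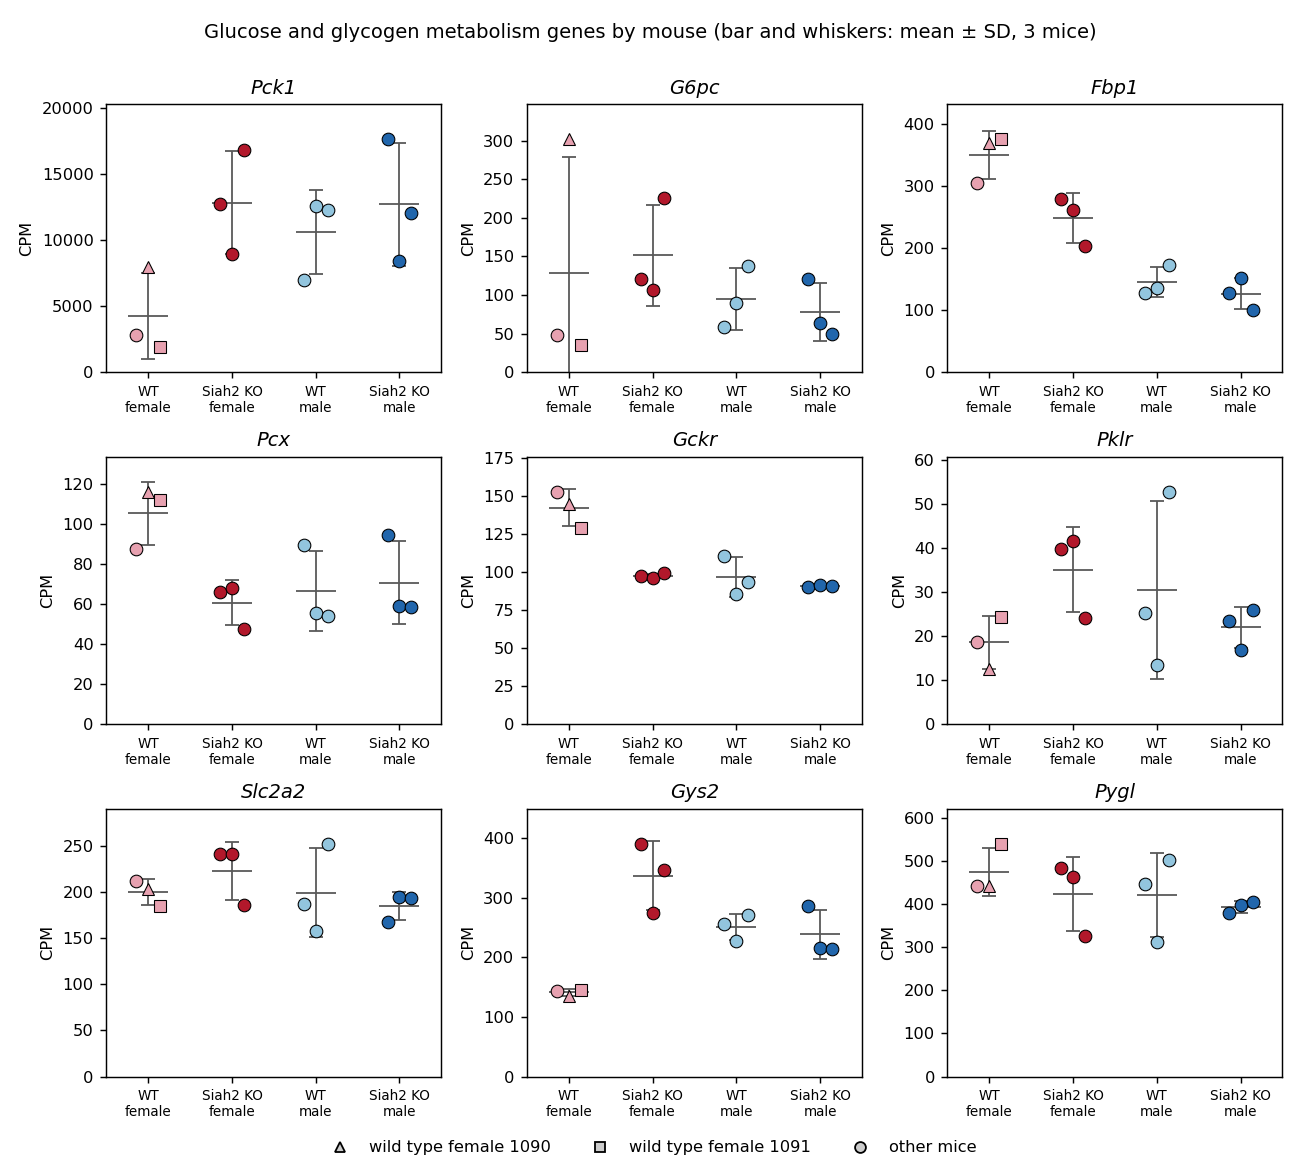
CPM (y axis, linear from 0, a scale for each gene) of the 9 genes in each mouse, by sex and genotype (x axis), with horizontal bars and whiskers for the mean ± SD of 3 mice. The lower G6pc whisker of wild type females runs below 0 and is not drawn further. Gys2 is lowest and Gckr highest in wild type females, and wild type female 1090 (triangle) departs from its group in Pck1, at 7972 CPM, and in G6pc, at 302 CPM.

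Ordered by group mean, Gys2 ran KOF, WTM, KOM and WTF, and neighbours overlapped only between the male groups. Fbp1 ran WTF, KOF, WTM and KOM, with overlap only between the male groups, and Gckr ran in the same order with WTF alone separate from its neighbour. In the other 6 genes every pair of neighbouring groups overlapped.

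The comparison of genotypes within females asked which of these genes differed between Siah2 KO and wild type mice of that sex. With edgeR, 0 of the 9 passed an adjusted p of 0.05, as did 0.00% of the 9465 genes tested, and 5 of the 9 were at an unadjusted p under 0.05 (Pck1, Pcx, Gckr, Pklr and Gys2), beside 15.6% of all genes. DESeq2 called 2 of the 9, Pck1 and Gys2, both higher in Siah2 KO females, beside 3.80% of its 8031 genes. In CPM, all 3 Siah2 KO females were higher in 2 of 9 members (Pck1 and Gys2), beside 11.4% of all genes, and lower in 3 of 9 (Fbp1, Pcx and Gckr), beside 11.9%. The median log2 fold change of the 9 was 0.14, against −0.035 over all genes tested.

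Gys2 was the closest to a call in females, with a log2 fold change of 1.25 (SE 0.23, 2.37-fold), an edgeR adjusted p of 0.0793 and a DESeq2 adjusted p of 0.000194. Leaving out any of the 6 mice kept its log2 fold change between 1.13 and 1.37. Pck1 had a log2 fold change of 1.59 (SE 0.51, 3.01-fold), with an edgeR adjusted p of 0.190 and a DESeq2 adjusted p of 0.0176. Its size depended on the uneven wild type females: it was 2.43 without mouse 1090 (edgeR adjusted p = 0.132) and 1.25 without mouse 1091 (edgeR adjusted p = 0.0702). These are levels of mRNA in whole liver, in which a change in the number of cells of a type and a change in RNA per cell cannot be told apart.

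The members that were lower in Siah2 KO females passed neither tool. Pcx had a log2 fold change of −0.81 (SE 0.24, edgeR adjusted p = 0.158, DESeq2 adjusted p = 0.104), Gckr of −0.56 (SE 0.21, edgeR adjusted p = 0.224) and Fbp1 of −0.51 (SE 0.23, edgeR adjusted p = 0.322). Pklr had a log2 fold change of 0.91 (SE 0.32, edgeR adjusted p = 0.209). For Fbp1 the unadjusted edgeR p was 0.0506. For the remaining 3 the intervals spanned 0. They ran from −0.29 to 0.57 for Slc2a2, from −0.65 to 0.30 for Pygl and from −1.13 to 1.57 for G6pc (95%, log2). For G6pc a 2-fold change in either direction thus lay inside the interval. The intervals given here and below are approximate. They take the SE as normal and are narrower than the F test implies. The G6pc log2 fold change was 0.22 with all mice, 1.84 without mouse 1090 and −0.22 without mouse 1091.

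Without mouse 1091, edgeR called 3 of the 9 in females, beside 9.64% of all genes: Gys2 (log2 fold change 1.28, adjusted p = 0.00527), Pklr (1.20, adjusted p = 0.0279) and Gckr (−0.61, adjusted p = 0.0435). With limma-voom and weights for library quality 5 of the 9 were called, namely Pck1, Pcx, Gckr, Pklr and Gys2, beside 11.2% of all genes. Gys2 was called in 5 of the 12 alternative settings in females, Pck1 in 3 and Gckr and Pklr in 2 each.

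Markers of hepatocytes near the central vein were summed beside these values. The summed CPM of 7 pericentral markers (Glul, Oat, Cyp2e1, Cyp1a2, Slc1a2, Lgr5 and Axin2) was 4579 to 5858 in wild type females and 9269 to 10309 in Siah2 KO females, with a positive log2 fold change in 6 of the 7, a median of 0.47 and none at 0 in all libraries. By edgeR 0 of the 7 passed and by DESeq2 1, Cyp2e1, whose mean went from 3542 to 7145 CPM and which gave most of the rise of the sum. The sum of 6 periportal markers was 1360 to 1608 CPM in wild type females and 1072 to 1184 in Siah2 KO females, with a negative log2 fold change in 4 of the 5 tested and a median of −0.48. Glucose production is greatest in periportal and glycolysis in pericentral hepatocytes, and the part of zonation in the values of Pck1, Gys2, Pcx, Gckr and Fbp1 was not tested. In males the pericentral sums overlapped (5746 to 7766 CPM in wild type, 6269 to 8689 in Siah2 KO), as did the periportal sums (1247 to 1634 and 1132 to 1269).

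**Figure D3:**
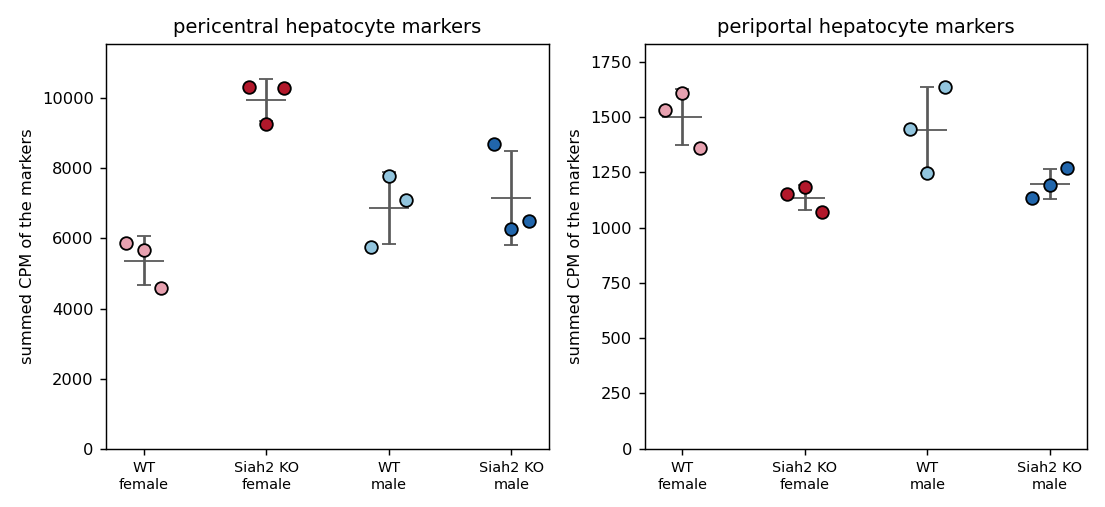
Summed CPM (y axis, from 0) of 7 pericentral (left) and 6 periportal (right) hepatocyte markers in each mouse, by group, with the mean ± SD of 3 mice. Siah2 KO females, at 9269 to 10309 CPM, are above wild type females, at 4579 to 5858, in the pericentral sum, and below them in the periportal sum.

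Of the other cells of the liver, endothelial (5 markers, 156 to 301 CPM), stellate cell (5 markers, 133 to 354 CPM) and bile duct markers (5 markers, 9.87 to 56.3 CPM) were low beside hepatocyte markers in all 12 libraries. Adipocyte markers gave 0 to 26.4 CPM, with 2 of 4 at 0 in every library.

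Within males no member passed the test for a difference between the genotypes. By edgeR 0 of 9 passed, as did 0.00% of the 8823 genes tested, and 0 of 9 were at an unadjusted p under 0.05, beside 4.05% of all genes. DESeq2 called 0 of 9, beside 0.0370% of its genes. All 3 Siah2 KO males were higher in 0 of 9 members, beside 4.45% of all genes, and lower in 0 of 9, beside 4.42%. The log2 fold changes ran from −0.52 (Pklr, SE 0.37) to 0.25 (Pck1, SE 0.25), with a median of −0.10. The approximate intervals ran from −0.40 to 0.23 for Gys2, from −0.41 to 0.23 for Gckr and from −0.44 to 0.23 for Pygl (95%, log2). For G6pc (−0.96 to 0.29) and Pklr (−1.24 to 0.20) larger decreases were not outside the interval.

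Whether the difference between the genotypes was unlike in the sexes was tested over all 12 mice, as the log2 change of the females less that of the males. By edgeR 0 of 9 members passed, beside 0.255% of 9806 genes, and 4 were at an unadjusted p under 0.05, beside 14.1%. DESeq2 called 1 of 9, Gys2, beside 4.03% of its genes. For Gys2 the difference was 1.33 on the log2 scale (SE 0.27), with an edgeR adjusted p of 0.0589 and a DESeq2 adjusted p of 0.000272, and without mouse 1091 edgeR called it (1.36, adjusted p = 0.00639), 1 of 9 beside 5.15% of all genes. The differences of Pklr (1.43, SE 0.56, edgeR adjusted p = 0.249), Pck1 (1.34, SE 0.62, edgeR adjusted p = 0.346) and Pcx (−0.90, SE 0.36, edgeR adjusted p = 0.266) did not pass with either tool.

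**Figure D4:**
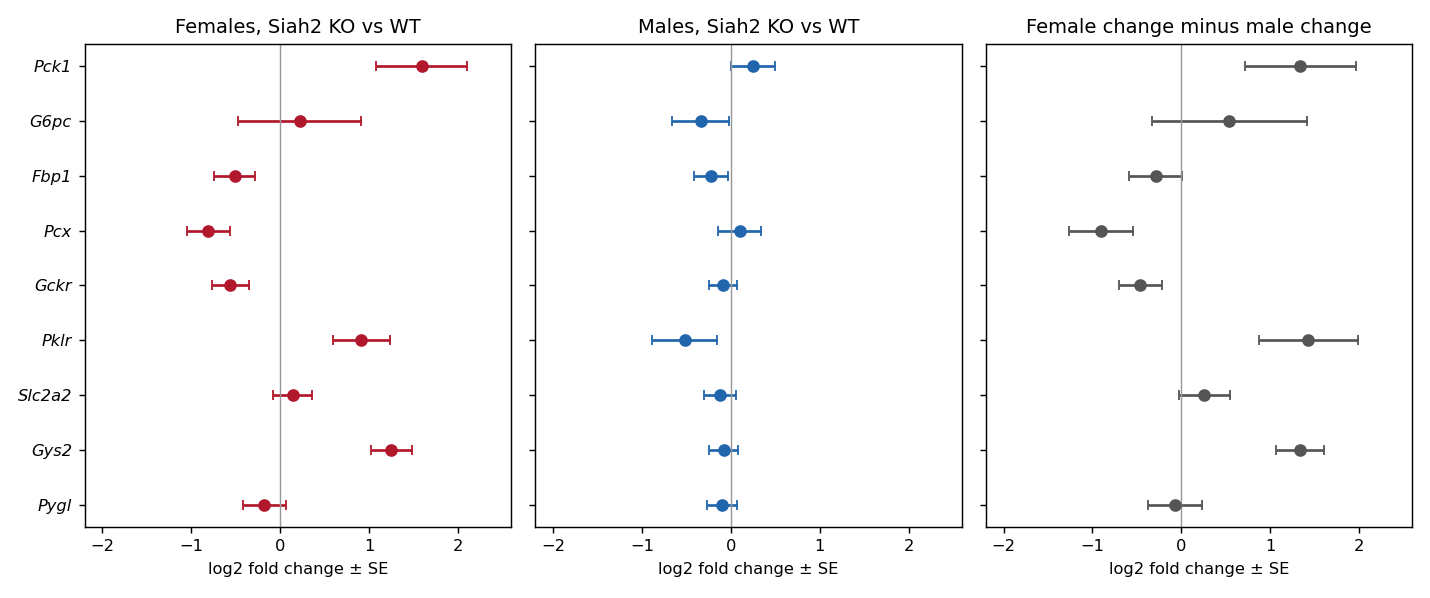
Log2 fold change of Siah2 KO relative to wild type (x axis, ± SE) for the 9 genes (y axis) in females (left) and males (middle), and the female change minus the male change (right). In females Pck1 (1.59) and Gys2 (1.25) lie furthest to the right and Pcx (−0.81) furthest to the left, whereas the male values lie between −0.52 and 0.25.

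The sexes were then compared within each genotype. These comparisons use the same wild type and Siah2 KO mice as those above, so their values are not independent of them, and since the counts of each sex came in a table of their own, sex and any difference in handling cannot be told apart. In wild type mice edgeR called 1 of 9, Fbp1, beside 1.39% of 9335 genes, and 5 of 9 were at an unadjusted p under 0.05, beside 15.2%. DESeq2 called 2 of 9, Fbp1 and Gys2, beside 3.68%, as did edgeR without mouse 1091, beside 7.73%. All 3 females were higher in 2 of 9 (Fbp1 and Gckr), beside 11.5% of all genes, and lower in 1 of 9 (Gys2), beside 11.2%.

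Fbp1 was higher in wild type females than in wild type males by a log2 fold change of 1.30 (SE 0.24, 2.47-fold), with an edgeR adjusted p of 0.0285 and a DESeq2 adjusted p of 0.000223. The call was lost when any of mice 1055, 1086, 1087, 1089 or 1090 was left out, with log2 fold changes between 1.22 and 1.41 and edgeR adjusted p-values up to 0.212. Gys2 was lower in the females (log2 fold change −0.80, SE 0.22), with an edgeR adjusted p of 0.119 and a DESeq2 adjusted p of 0.0198. Pck1 had a log2 fold change of −1.31 (SE 0.50, edgeR adjusted p = 0.245), which became −2.13 without mouse 1090 (edgeR adjusted p = 0.0305) and −0.97 without mouse 1091 (edgeR adjusted p = 0.153). For G6pc the value was 0.43 with all mice, −1.16 without mouse 1090 and 0.86 without mouse 1091, so that its sign followed the mouse left out.

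In Siah2 KO mice edgeR called 1 of 9, again Fbp1, beside 11.5% of 9102 genes, and 4 of 9 were at an unadjusted p under 0.05, beside 26.1%. DESeq2 also called 1 of 9, Fbp1, beside 8.20%. Females were higher in 2 of 9 without overlap (Fbp1 and Gckr), beside 14.7% of all genes, and lower in 0 of 9, beside 16.0%. Fbp1 had a log2 fold change of 0.98 (SE 0.18, 1.98-fold), an edgeR adjusted p of 0.00293 and a DESeq2 adjusted p of 4.49e-05, and remained past the threshold in all 12 alternative settings. G6pc (0.96, SE 0.31, edgeR adjusted p = 0.0576), Gys2 (0.50, SE 0.17, edgeR adjusted p = 0.0741) and Pklr (0.69, SE 0.24, edgeR adjusted p = 0.0800) were near the threshold with edgeR, all with the females higher. The DESeq2 adjusted p was 0.293 for G6pc, 0.0792 for Gys2 and 0.193 for Pklr, and the sexes overlapped in each of them. Pck1 had a log2 fold change of 0.02 (SE 0.26), with an interval from −0.49 to 0.53. The Fbp1 values are thus those of a gene higher in females of both genotypes, and its change with genotype within females passed neither tool. Sums of macrophage markers overlapped between the sexes in wild type and not in Siah2 KO mice. The 8 macrophage markers summed to 479 to 653 CPM in WTF, 349 to 809.6 in KOF, 90.7 to 596 in WTM and 107 to 244 in KOM. The overlap in wild type came from male 1086 alone, at 596 CPM. Males 1055 and 1087, at 153 and 90.7 CPM, were below all wild type females. Of 5 red blood cell markers 4, all globin genes, were at 0 in every library, and the other, Alas2, had 8.47 to 25.2 CPM in the females and 83.9 to 154 in the males. Whether the globin genes could be counted here was not tested, so their zeros do not show that red blood cells were absent. The part of macrophages and red blood cells in the difference of Fbp1 was not tested.

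The other genes of the pathway were followed as a list of 106, all found in the tables, in 7 groups (gluconeogenesis and glucose release, glycolysis and glucose uptake, glycogen, fructose, galactose and polyol metabolism, pentose phosphate, pyruvate entry to mitochondria, and regulators). In females 79 were tested, and edgeR called 0, beside 0.00% of all genes, with 10 (12.7%) at an unadjusted p under 0.05 beside 15.6%. DESeq2 called 1 higher and 1 lower, beside 3.80% of all its genes. The median log2 fold change of the 79 was −0.04, beside 0.14 for the 9. The gene DESeq2 called higher was Pgk1 (phosphoglycerate kinase), with 27.5 ± 6.76 CPM in wild type and 95.2 ± 6.91 in Siah2 KO females (SD, n = 3) and a log2 fold change of 1.78 (SE 0.26, edgeR adjusted p = 0.0793, DESeq2 adjusted p = 2.39e-06). Reads of Pgk1 may be shared with its near-identical copies, and its values are uncertain to that extent. Mdh2 (mitochondrial malate dehydrogenase) went from 271 ± 49.5 to 141 ± 17.6 CPM, a log2 fold change of −0.95 (SE 0.24, edgeR adjusted p = 0.118, DESeq2 adjusted p = 0.0153).

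All 3 Siah2 KO females were higher in 9 of the 79, or 11.4%, and lower in 10, or 12.7%, which is near the 11.4% and 11.9% of all genes, so that the counts do not set the list apart. Among those with at least 10 CPM on average over the 6 females, the higher ones with the largest log2 fold change, beside Pgk1, were 2 enzymes that supply gluconeogenesis from amino acids, Sds (serine dehydratase, 1.97) and Tat (tyrosine aminotransferase, 1.22), the transcription factor Cebpb (1.65), Pfkfb2 (0.85) and the glycogen branching enzyme Gbe1 (0.62). The edgeR adjusted p was 0.201 for Sds, 0.343 for Tat and 0.288 for Cebpb. The 6 lower ones of largest log2 fold change with that level were Mdh2, Pdk2 (pyruvate dehydrogenase kinase, −1.26), Gsk3a (glycogen synthase kinase, −1.06), Tkt (transketolase, −0.63), Pfkfb3 (−0.62) and Gaa (lysosomal glucosidase, −0.51), and of these DESeq2 called Mdh2 alone. Like Pck1, Sds, Tat and Cebpb were uneven in wild type females, from 7.64 to 118 CPM, from 37.9 to 311 and from 12.7 to 209. Their log2 fold changes include mouse 1091, and how far they rest on it was not tested.

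In males 74 of the 106 were tested, and 0 were called by edgeR (0.00% of all genes) or DESeq2 (0.0370% of all its genes). At an unadjusted p under 0.05 were 4 (5.41%), beside 4.05% of all genes. All 3 Siah2 KO males were higher in 1 (1.35%, beside 4.45% of all genes), Pfkfb3, with a log2 fold change of 0.94. They were lower in 5 (6.76%, beside 4.42%), Ppargc1a (−0.67), Pdk1 (−0.42), Khk (−0.36), Irs1 (−0.30) and Galm (−0.23). For the difference between the sexes edgeR called 1 of 82 (1.22%, beside 0.255% of all genes), Pgk1 (2.16, SE 0.35, adjusted p = 0.0460). DESeq2 called Pgk1 and Pfkfb3 (−1.56, DESeq2 adjusted p = 0.0282), beside 4.03% of all its genes.

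**Figure D5:**
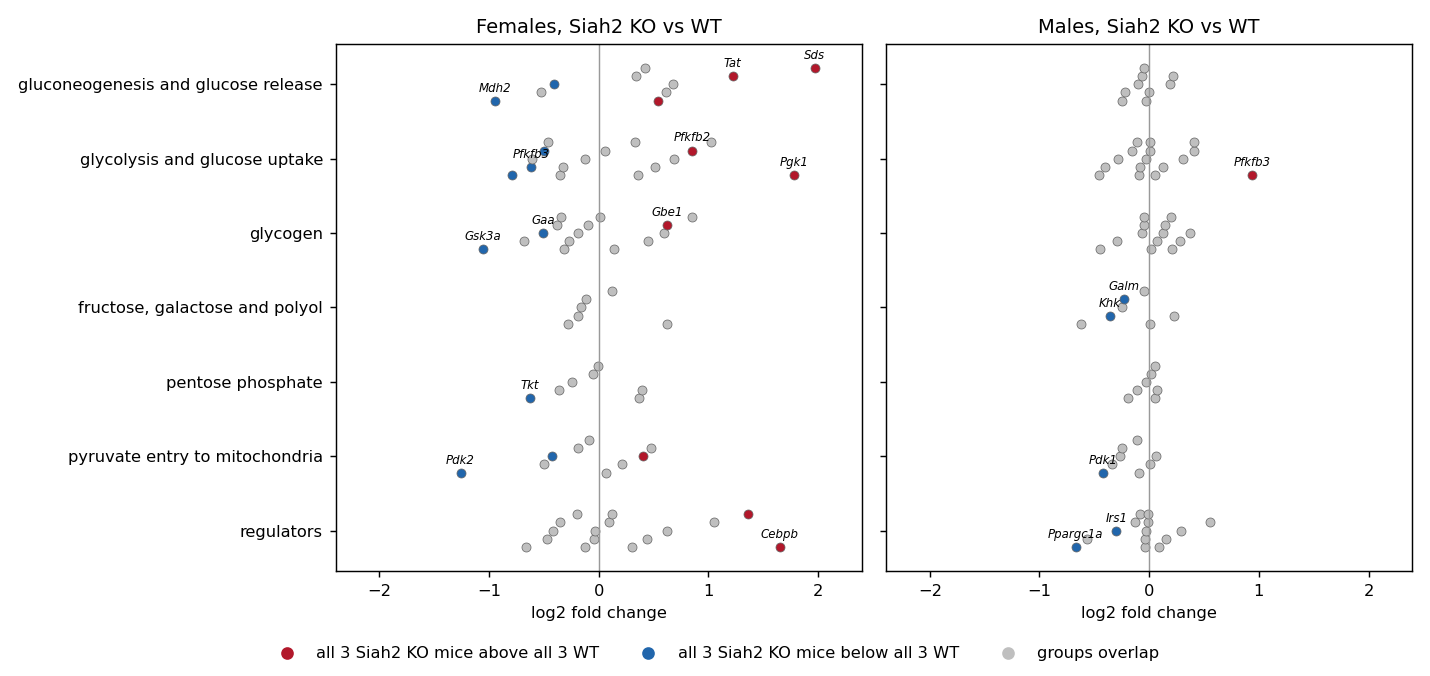
Log2 fold change of Siah2 KO relative to wild type (x axis) of the other glucose and glycogen genes tested, 79 in females (left) and 74 in males (right), grouped by list (y axis, points offset for legibility only). Red and blue points are genes whose 3 Siah2 KO mice are all above or all below the wild type mice, 9 and 10 in females and 1 and 5 in males.

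Between the sexes, wild type mice gave 0 calls by edgeR among 76 list genes, beside 1.39% of all genes. At an unadjusted p under 0.05 were 9 (11.8%), beside 15.2%. DESeq2 called 1 there, the cyclic AMP coactivator Crtc2, lower in females, beside 3.68% of all its genes. Crtc2 was low in wild type females, at 4.96 ± 3.83 CPM with a lowest value of 0.637, against 23.4 ± 5.15 in wild type males (SD, n = 3). Its log2 fold change was −2.23 (SE 0.57, edgeR adjusted p = 0.0966, DESeq2 adjusted p = 0.00657). In Siah2 KO mice edgeR called 16 of 73 (21.9%, beside 11.5% of all genes), with 9 higher and 7 lower in females. The higher ones were Slc37a4 (the glucose-6-phosphate transporter that works with G6pc, log2 fold change 1.14), Mdh1 (0.90), Got1 (1.30), Gpt (0.87), Pgk1 (1.37), Khk (0.86), Mpc2 (0.96), Pdk1 (0.84) and Ppargc1a (0.85). The lower ones were Pfkfb3 (−2.57), Ppp1r3c (a glycogen-targeting subunit of protein phosphatase 1, −1.33), H6pd (−1.12), Mlxipl (ChREBP, the glucose-responsive transcription factor, −0.87), Stbd1 (−0.81), Hnf4a (−0.63) and Taldo1 (−0.59). Gckr differed between the Siah2 KO sexes by 0.11 (SE 0.15) on the log2 scale.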

How the data were processed

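The authors sequenced Lexogen QuantSeq 3′ mRNA libraries of 12 mouse livers, processed the reads with Illumina's BaseSpace tools (trimming, mapping and counting), and deposited a table of raw counts per gene for each sex. The submitters' processing notes name STAR, DESeq and mm10, without versions or roles. The deposited counts are whole numbers with no normalization, and reads carried no molecular identifiers. The mouse number in a column name gave its sample. Totals were 1293688 to 4056144 counts per library, and their precision covers counting error only. The authors' own fold changes and p-values were not used.

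The quasi-likelihood F test of edgeR 4.0.16 in R 4.3.3 (two-sided, after filterByExpr and TMM scaling) was run on all genes, with Benjamini-Hochberg adjustment over all genes tested and a threshold of 0.05. Genotypes were compared within each sex, and sexes within each genotype, on 6 mice each. The difference between the sexes used all 12. The SE of a fold change was derived from its F statistic. CPM were scaled with TMM over all 12 libraries, and log2 CPM used a prior count of 3. The scripts were tested on simulated data. Alternatives were DESeq2 1.42.0 with default filtering (the method the study used), RLE scaling, no filter beyond 1 count, Rn45s left out, limma-voom (limma 3.58.1) with quality weights, a fit of all 4 groups and each mouse left out. Tables and figures used Python 3.11.15, pandas 2.3.3, numpy 2.4.6 and matplotlib 3.10.9.

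The 9 genes and all lists were chosen with earlier results of these data known. A further listed gene is not reported here. Of the 106 listed genes, those called by edgeR or DESeq2 are named, with up to 6 higher and 6 lower genes per sex of largest log2 fold change, with at least 10 CPM on average and without overlap between genotypes. For the 3 members with the largest SD of log2 CPM, the 3 genes nearest in centred log2 CPM over the 12 mice are named. Positions and promoters are from RefSeq GRCm38.p6, matched by symbol for 9 and 8 of the 9 members. Spreadsheet software had turned 27 symbols into dates, and these were kept in the totals.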

Additional observations from a re-analysis of the deposited data

How the results depend on the processing

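Without wild type female 1091, the library that stood apart, 3 members were called in females against 0 with all mice. The number of members called in females, with the share of all genes called in brackets, was 2 with DESeq2 (3.80%), 2 with no filter beyond 1 count (2.82%), 5 with limma-voom and quality weights (11.2%), 1 in a fit of all 4 groups (4.35%), and 0 to 3 with a mouse left out (0.00% to 9.64%). For the difference between the sexes it was 0 with all mice (0.255%), 1 with DESeq2 (4.03%), 3 with no filter (1.82%), 1 with limma-voom (5.69%) and 0 to 1 with a mouse left out (0.00% to 5.15%). Between the sexes in wild type it was 1 with all mice (1.39%), 2 with DESeq2 (3.68%), 2 with no filter (3.17%), 3 with limma-voom (8.59%), 2 in the fit of all 4 groups (5.15%) and 0 to 2 with a mouse left out (0.451% to 7.73%). In Siah2 KO it was 1 with all mice (11.5%), 2 with no filter (7.56%) and 1 to 2 with a mouse left out (5.14% to 11.2%). In males it was 0 throughout. The cause of these shifts was not tested. With a mouse left out, log2 fold changes of opposite sign were reached in females by G6pc (−0.22 to 1.84), and in males by Pck1 (−0.047 to 0.48), G6pc (−0.78 to 0.050), Pcx (−0.15 to 0.36), Gckr (−0.15 to 0.019), Pklr (−0.86 to 0.24), Slc2a2 (−0.24 to 0.10), Gys2 (−0.22 to 0.0020) and Pygl (−0.26 to 0.058). The same held for Pygl in the difference between the sexes (−0.25 to 0.093, and 0.015 with limma-voom), for G6pc (−1.16 to 0.86) and Slc2a2 (−0.10 to 0.22, and −0.0030 with DESeq2) between the wild type sexes, and for Pck1 (−0.23 to 0.32, −0.0030 with no filter and −0.061 with limma-voom) and Pcx (−0.33 to 0.054) between the Siah2 KO sexes. None of these values had passed the test with all mice. Of the member values under alternatives, 524 kept direction and side of the threshold, 29 passed it newly, 5 lost it and 27 changed sign. Groups of 3 mice limit every comparison, and counting depth limits Pklr most.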

Other observations

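The genes whose level followed those of the 3 most variable members most closely over the 12 mice were looked up among 6536 genes, by the root mean square difference of centred log2 CPM. For Pck1, whose log2 CPM had an SD of 0.98, they were Cab39 (0.34), Pdpk1 (0.40), the kinase that phosphorylates AKT, and Desi2 (0.40). Cab39 had 49.8, 85.8 and 42.0 CPM in wild type females 1089, 1090 and 1091, against up to 218 CPM in the other mice, so that it was lowest in the same mice as Pck1.

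For G6pc (SD 0.92) the nearest were Idh3a (0.45), Txnip (0.48), which encodes a glucose-responsive regulator of glucose uptake, and Actr6 (0.49). Txnip had 182, 443 and 111 CPM in the 3 wild type females, with mouse 1090 the highest and mouse 1091 the lowest of all 12 mice, as for G6pc. For Fbp1 (SD 0.65) they were AW112010 (0.21), Triap1 (0.22) and Trappc4 (0.23). The genes were picked for likeness over these same 12 mice, so that high and low mice shared with a member follow from the choice. The distances carry no test, and wild type female 1091 had the lowest or the highest value of all 12 mice in 8 of these 9 genes.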
